A study of Mus musculus with 8 samples.

Results

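The receptors through which mast cells sense IgE, IgG, stem cell factor, IL-33 and IL-3 were examined as a group of 10 genes, chosen by name among the 24059 gene symbols of the count data: *Fcer1a*, *Ms4a2*, *Fcer1g*, *Fcgr2b*, *Fcgr3*, *Kit*, *Il1rl1*, *Il3ra*, *Csf2rb* and *Csf2rb2*. They were measured in bone marrow–derived mast cells (BMMCs), differentiated in culture from the bone marrow of C57BL/6 mice 6 to 8 wk of age, kept with IL-3 for at least 4 wk. The cells of 4 mice were transfected either with a scrambled, non-targeting Cas9-gRNA ribonucleoprotein (Scrambled RNP, genotype label *Zc3h12a* WT, 4 samples) or with a mix of 3 crRNAs against *Zc3h12a*, the gene of the endoribonuclease Regnase-1 (*Zc3h12a* RNP, genotype label *Zc3h12a* KO, 4 samples). RNA was taken from resting cells after 1 wk, so each *Zc3h12a* RNP sample is a transfected pool and not a clone, and both groups carried Cas9 and grew in the presence of IL-3. All 10 genes passed the filter on low counts that left 14934 genes to be tested.

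Mast cells bind IgE through FcεRI, a receptor made of an IgE-binding α chain, a signal-amplifying β chain and a pair of γ chains that carry the signal inward. Kit is the tyrosine kinase receptor of stem cell factor, ST2 is the IL-33 receptor chain, and the IL-3 receptor pairs a ligand-binding α chain with a β chain. Mice have a pair of such β chains, a common one shared with IL-5 and GM-CSF and one that works with IL-3 alone. The IgG receptors FcγRIIB and FcγRIII counter and drive mast cell activation, respectively.

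The total count was 19610240 to 33986762 per Scrambled RNP sample and 23712029 to 28564062 per *Zc3h12a* RNP sample, and the 10 receptor genes together took 2.156% to 2.878% of it. The targeted mRNA itself was at 24.95 to 39.31 CPM (counts scaled to the TMM-normalized library size) with Scrambled RNP and at 26.84 to 41.12 CPM with *Zc3h12a* RNP. Its level therefore gives no check of the labels. For the protein, the paper reports that such RNPs depleted Regnase-1 effectively, as seen by Western blot. The libraries of Scrambled RNP replicates 2 and 4 stood at the ends of the first principal component, at -121 and 74.67, with the other 6 libraries between -48.37 and 40.41. Mast cell markers other than the receptors summed to 48700 to 56900 CPM with Scrambled RNP and 44700 to 51600 CPM with *Zc3h12a* RNP. Of the 11 such markers in the data, 9 had negative log2 fold changes, with a median of -0.129, where 42.2% of all genes tested and 52.3% of 8660 genes with a mean log2 CPM above 3 were negative. An unadjusted p at or under 0.05 was found for 3 of the 11, all lower, and for 6.17% of all genes tested. These were *Tpsb2*, a tryptase gene (-0.281, standard error 0.0767), *Hdc*, which encodes histidine decarboxylase (-0.748, standard error 0.224), and *Srgn*, the gene of the granule proteoglycan serglycin (-0.227, standard error 0.0785), with adjusted p of 0.554 to 0.686 in edgeR. *Hdc* was called in DESeq2, with no filter on low counts and without replicate 2, and limma called none of the 11 with the replicate block. Macrophage markers summed to at most 6.58 CPM, neutrophil markers to at most 0.561, eosinophil markers to at most 11.3, B cell markers to at most 2.91, T cell markers to at most 6.32 and dendritic cell markers to at most 8.82. The symbols of the neutrophil markers *S100a8*, *Elane*, *Camp* and *Ltf* and of the eosinophil markers *Epx* and *Ear1* are absent from the count data. Those sums leave them out. Single markers of these lists differed. *Csf1r*, *Csf3r* and *Ms4a1* had no more than 3, 4 and 1 counts in any sample, and *Cd8a* had 0. Others were counted more, with 56 to 111 counts per sample for *Adgre1* (macrophage) and 7 to 52 for *Pax5* (B cell). *Cd3e* (T cell) had 13 to 119 and *Flt3* (dendritic cell) 11 to 150. The libraries also differed in barely counted genes as a class. Genes with a mean log2 CPM below 0 summed to 725.1 CPM in Scrambled RNP replicate 2 and to 2830 in Scrambled RNP replicate 4. From Scrambled to *Zc3h12a* RNP, *Flt3*, *Cd3e* and *Pax5* differed by 3.46, 2.87 and 2.41 (log2) in replicate 2. In replicate 4 they differed by -1.77, -1.04 and -1.58. The part of this background in the marker counts was not tested. Basophil markers summed to 458 to 545 CPM, nearly all of it *Cd200r3* (451 to 540), and progenitor markers to 776 to 947, mostly *Cd34* and *Ly6a*. In bulk samples, fewer cells of a type and less RNA per cell cannot be told apart.

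The 250 bases before the RefSeq start of the α and β chains of FcεRI and of the first start of *Il1rl1* are shown, because these genes are known to be bound by GATA factors in mast cells and each window holds at least 1 of the words such factors are known to bind. Capitals mark the words searched for, AGATAA and AGATAG as well as TGATAA and TGATAG, on either strand, and no 2 of the marked words overlap. The windows were taken from RefSeq's GRCm38.p6 table and matched to GRCm39 at chr1:173054797-173055046 (minus strand), chr19:11601084-11601333 (minus strand) and chr1:40468480-40468729 (plus strand), and are written 5′ to 3′.
*Fcer1a*: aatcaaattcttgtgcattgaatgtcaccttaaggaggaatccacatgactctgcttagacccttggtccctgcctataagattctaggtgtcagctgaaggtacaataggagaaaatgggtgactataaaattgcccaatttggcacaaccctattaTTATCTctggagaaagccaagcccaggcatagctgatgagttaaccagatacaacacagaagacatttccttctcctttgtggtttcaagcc
*Ms4a2*: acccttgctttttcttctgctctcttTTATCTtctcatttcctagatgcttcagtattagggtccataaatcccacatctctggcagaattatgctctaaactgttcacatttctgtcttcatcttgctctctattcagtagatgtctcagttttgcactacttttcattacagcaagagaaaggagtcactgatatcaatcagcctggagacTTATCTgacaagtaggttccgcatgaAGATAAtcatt
*Il1rl1*: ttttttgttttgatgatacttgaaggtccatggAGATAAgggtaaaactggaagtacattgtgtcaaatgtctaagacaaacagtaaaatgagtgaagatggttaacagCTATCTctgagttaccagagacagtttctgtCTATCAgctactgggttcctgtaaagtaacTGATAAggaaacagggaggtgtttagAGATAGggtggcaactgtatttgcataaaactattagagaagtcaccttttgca
The *Il1rl1* window holds 5 such words, that of *Ms4a2* 3 and that of *Fcer1a* 1. The second start of *Il1rl1*, *Il3ra* and *Csf2rb2* hold 1 each, and the windows of *Fcer1g*, *Fcgr2b*, *Fcgr3* and *Kit* hold 0. In all, 9 of the 10 genes were matched, with 12 start sites of which 6 hold a word, and 26.5% of the 32851 promoter windows of the table hold at least 1 and 6.4% at least 2. These matches describe letters and not bound sites.

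The other sequences that bear on the values are those of near-identical copies. *Csf2rb* and *Csf2rb2* lie side by side on chromosome 15 in opposite directions, and their coding sequences were 95.4% identical over 2626 aligned bases, with an identical stretch of up to 242 bases. A read of 50 bases that falls inside such a stretch matches both genes, and 11.4% of the 50-base words of *Csf2rb* exons occur in *Csf2rb2* exons, and 18.1% the other way round. *Fcgr3* and *Fcgr2b* on chromosome 1 were 89.4% identical over 718 aligned coding bases, with 5.34% and 2.59% of such words shared. These shares are for single reads. The reads were sequenced in pairs, and a mate outside a shared stretch can tell the genes apart. The 60-base coding stretches below show how 2 such genes can be told apart at some positions and not at others. They were chosen for many differences, so they do not show the longest identical stretches. Capitals mark the 9 and 7 bases that differ between the 2 genes. They lie on GRCm39 at chr15:78223061-78223120 (plus strand) and chr15:78178611-78178670 (minus strand) for the IL-3 receptor pair, and at chr1:170885441-170885500 and chr1:170795730-170795789 (both minus strand) for the IgG receptor pair.
*Csf2rb*: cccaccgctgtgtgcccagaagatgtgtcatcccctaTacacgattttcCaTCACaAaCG
*Csf2rb2*: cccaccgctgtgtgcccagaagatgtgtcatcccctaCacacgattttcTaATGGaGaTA
*Fcgr3*: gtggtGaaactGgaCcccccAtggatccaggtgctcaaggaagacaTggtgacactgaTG
*Fcgr2b*: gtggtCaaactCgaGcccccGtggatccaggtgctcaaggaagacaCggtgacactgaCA
How reads with several matches were counted is not given in the sources used here, so the division of counts within each pair is uncertain.

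The receptor mRNAs spanned a wide range of levels in resting BMMCs. Per kilobase of exon, which allows genes of different length to be compared, *Fcer1a* was highest at 2450 ± 335 CPM per kilobase (SD, n = 8 samples), followed by *Csf2rb2* at 1684 ± 205. *Il1rl1* (652 ± 110), *Csf2rb* (582 ± 93.9), *Ms4a2* (503 ± 71.1), *Fcer1g* (466 ± 70.9) and *Kit* (359 ± 56.7) followed, and *Fcgr3* (94.5 ± 21.4), *Il3ra* (27.3 ± 5.30) and *Fcgr2b* (12.2 ± 0.864) were lowest. The ranges of neighbors in this order did not overlap among the first 3 genes and among the last 4. From *Il1rl1* to *Kit*, each gene overlapped with the next, and *Il1rl1* exceeded *Csf2rb* in 7 of 8 samples, *Csf2rb* exceeded *Ms4a2* in 6 and *Ms4a2* exceeded *Fcer1g* in 6; *Fcer1g* exceeded *Kit* in all 8, though the ranges over samples overlapped. With the length of the canonical transcript in place of all annotated exons, *Fcer1a* and *Csf2rb2* stayed at places 1 and 2, and *Fcgr3*, *Il3ra* and *Fcgr2b* at places 8 to 10. In between, *Kit* moved from place 7 to 5, *Ms4a2* from 5 to 7, and *Il1rl1* and *Csf2rb* traded places 3 and 4.

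**Figure D1:**
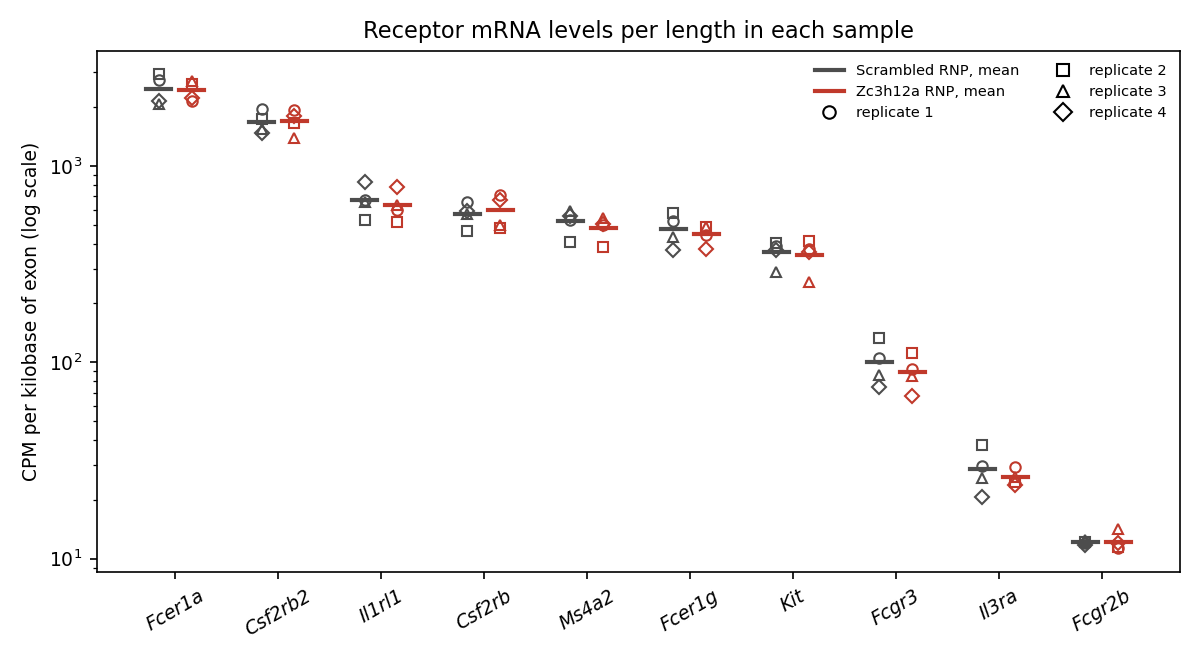
Level of each receptor mRNA in CPM per kilobase of exon (log axis) in the 4 Scrambled RNP samples (grey) and the 4 *Zc3h12a* RNP samples (red), with a marker shape per replicate number and a bar at each group mean. *Fcer1a* lies highest (mean of 8 samples 2450) and *Fcgr2b* lowest (12.2), and the groups overlap for each of the 10 genes.

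Measured without regard to length, 6 of these genes were among the most counted mRNAs of the cell. By mean CPM over 8 samples, *Csf2rb2* ranked 7 of 14934 genes tested, *Il1rl1* 13, *Csf2rb* 15, *Kit* 17, *Fcer1a* 26 and *Ms4a2* 55. *Fcer1g* ranked 265 and *Fcgr3* 571, while *Il3ra* (2432) and *Fcgr2b* (2935) stood much lower.

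The design asks whether any of these receptors differed after *Zc3h12a* RNP. None of the 10 genes was called higher or lower, at a log2 fold change beyond 0.5 and an adjusted p at or under 0.05 by the quasi-likelihood test of edgeR, blocked on the replicate number; of all genes tested, 0% were called. None had an unadjusted p at or under 0.05 either, against 6.17% of all genes tested, and DESeq2 and limma called 0 of the 10 as well. The adjusted p ran from 0.902 to 0.992, and each 95% interval of a log2 fold change lay between -0.42 and 0.264, so that none reached 0.5 in either direction. A p that misses the threshold does not show that the groups are alike, and these intervals give the size of change the samples leave possible. The lowest count of a receptor gene in a sample was 1365 and the highest 290164. Standard errors were 0.068 to 0.135, beside a median of 0.0974 for 8660 genes with a mean log2 CPM above 3.

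By direction, 7 of the 10 log2 fold changes were negative, with a median of -0.0653. Over all genes tested the median was 0.0379 and 42.2% were negative, and among the 8660 genes above a mean log2 CPM of 3 the median was -0.00682 and 52.3% were negative. *Ms4a2*, *Fcgr3* and *Il1rl1* were lower in 4 of 4 pairs (samples with the same replicate number), which 8.54% of all genes tested were. No receptor gene was higher in 4 of 4 pairs, against 4.98% of all genes, and for none did the CPM values of the groups fail to overlap, against 0.924% of all genes. The tally depended on the scaling and on single replicates. With library size alone as the scaling, 5 of the 10 were negative and their median was 0.00257. Without replicate 1, 5 were negative (median 0.0102), and without replicate 2, 4 were (median 0.068), while RLE normalization and DESeq2 gave 9. Of the 11 mast cell markers, 9 had negative values too, and their part in these directions was not tested.

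**Figure D2:**
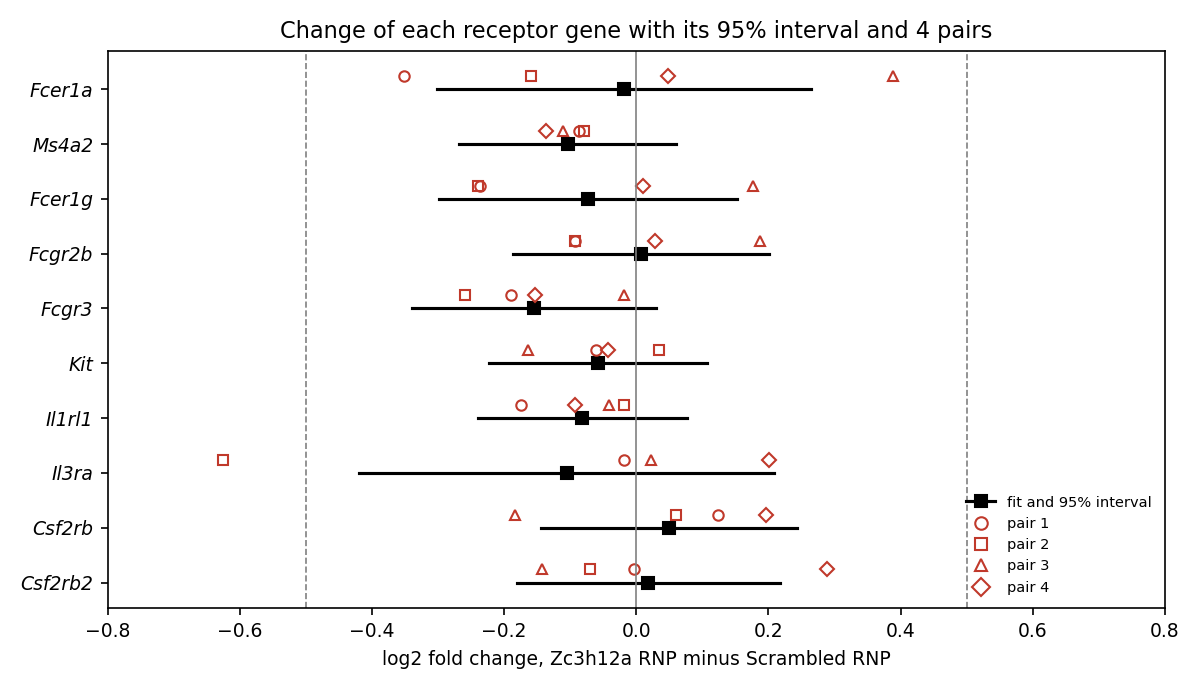
Log2 fold change of each receptor gene, *Zc3h12a* RNP minus Scrambled RNP, from edgeR with the replicate block (black square) with its 95% interval (black line), and the log2 difference of CPM in each of the 4 pairs (red markers, 1 shape per pair). Dashed lines mark 0.5 in either direction; all intervals lie between -0.42 and 0.264, and the pairs of *Ms4a2*, *Fcgr3* and *Il1rl1* all lie below 0.

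*Fcer1a* (chr1:173048851-173054781, minus strand) encodes the IgE-binding α chain of FcεRI. It was at 2741, 2920, 2064 and 2147 CPM in Scrambled RNP replicates 1 to 4, and at 2149, 2615, 2703 and 2218 CPM in *Zc3h12a* RNP replicates 1 to 4. Replicates 1 and 2 were high among Scrambled RNP samples and replicates 2 and 3 among *Zc3h12a* RNP samples, with overlapping groups. The means were 2468 ± 426 and 2422 ± 278 CPM (SD, n = 4), which is a difference of -0.0185 on the log2 scale (standard error 0.121, 95% interval -0.301 to 0.264, edgeR's adjusted p = 0.984). The pairs disagreed, with log2 differences of -0.351, -0.159, 0.389 and 0.0475, and the value turned positive with library size alone as the scaling and without replicate 1 or 2.

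*Ms4a2* (chr19:11592887-11601083, minus strand) encodes the β chain, which amplifies FcεRI signaling. Its CPM was 1497, 1148, 1654 and 1567 in Scrambled RNP replicates 1 to 4 and 1409, 1086, 1532 and 1425 in *Zc3h12a* RNP replicates 1 to 4. Replicate 2 was the lowest of both groups, and each *Zc3h12a* RNP sample was slightly below the Scrambled RNP sample of its number. The differences of pairs 1 to 4 were -0.0873, -0.0795, -0.111 and -0.136 on the log2 scale, and the group means were 1466 ± 222 and 1363 ± 192 CPM (SD, n = 4). The log2 fold change of *Ms4a2* was -0.104 (standard error 0.0703, 95% interval -0.268 to 0.0605, edgeR's adjusted p = 0.96).

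*Fcer1g* (chr1:171057141-171062219, minus strand) encodes the γ chain, which FcεRI shares with FcγRIII. Scrambled RNP replicates 1 to 4 had 611.9, 671.2, 503.4 and 434.7 CPM and *Zc3h12a* RNP replicates 1 to 4 had 519.1, 568.5, 568.8 and 438 CPM. Replicate 4 was the lowest of both groups, and the groups overlapped. The log2 differences of pairs 1 to 4 were -0.237, -0.239, 0.176 and 0.0109, the same signs as those of *Fcer1a*. The fitted log2 fold change was -0.0726 (standard error 0.0969, edgeR's adjusted p = 0.96), and it was positive without replicate 1 or 2.

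Within a library, *Fcer1a* had 4.1 to 5.06 counts per count of *Fcer1g*, and the ratio differed by less than the spread within a group (4.47 ± 0.351 with Scrambled RNP and 4.64 ± 0.385 with *Zc3h12a* RNP; SD, n = 4). Per kilobase of exon, the α chain mRNA was 5.29 ± 0.41 times that of the γ chain and 5.02 ± 1.32 times that of the β chain (SD, n = 8). The ratio of *Ms4a2* to *Fcer1a* counts varied more, from 0.393 in Scrambled RNP replicate 2 to 0.801 in Scrambled RNP replicate 3. The α and β chains thus varied apart from each other while the α and γ chains kept a narrow ratio. Over the 8 samples, log2 CPM of *Fcer1a* and *Fcer1g* had a Pearson correlation of 0.863, and *Fcer1a* and *Ms4a2* one of -0.566 (Spearman's rho 0.881 and -0.548). These 8 points are no independent replicates, since samples of a number were taken as cells of the same mouse, and each value carries the properties of its whole library.

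Both *Fcer1a* and *Fcer1g* are short, with 0.998 and 1.16 kb of exon, and short genes as a class varied between the libraries. The median log2 deviation of 160 genes under 1.5 kb, minus that of 5932 genes over 5 kb, was 0.0721, 0.141, 0.0813 and -0.149 in Scrambled RNP replicates 1 to 4 and -0.0774, -0.0353, 0.295 and -0.249 in *Zc3h12a* RNP replicates 1 to 4. Replicate 3 after *Zc3h12a* RNP was highest and replicate 4 after *Zc3h12a* RNP lowest on this measure. *Fcer1g* was lowest in replicate 4 of both groups, whereas *Fcer1a* was lowest in Scrambled RNP replicate 3, where the measure was 0.0813. The part of this measure in the values of *Fcer1a* and *Fcer1g* was not tested.

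*Fcgr3* (chr1:170878738-170893549, minus strand) encodes the low-affinity activating IgG receptor FcγRIII. It was at 325.5, 412.4, 266.1 and 231.6 CPM in Scrambled RNP replicates 1 to 4 and at 285.5, 344.6, 262.7 and 208.2 CPM in *Zc3h12a* RNP replicates 1 to 4. Both groups ran from replicate 2 as the highest to replicate 4 as the lowest, over a 1.98-fold range, the widest of the 10 genes. Its log2 fold change of -0.155 (standard error 0.0794, 95% interval -0.34 to 0.0299) was the most negative of the group and had the lowest unadjusted p of the 10, 0.0885, with an adjusted p of 0.902 in edgeR. The pairs gave -0.189, -0.259, -0.0186 and -0.154.

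*Fcgr2b* (chr1:170786186-170804177, minus strand) encodes the inhibitory IgG receptor, and 355 of its 5854 exon bases are overlapped by a noncoding gene of the other strand, *Gm38204*. Scrambled RNP replicates 1 to 4 were almost level at 70.6, 71.37, 72.49 and 68.95 CPM, and *Zc3h12a* RNP replicates 1 to 4 had 66.23, 66.95, 82.53 and 70.31 CPM. Replicate 3 after *Zc3h12a* RNP was above all other samples and replicates 1 and 2 below them. The log2 fold change was 0.00768 (standard error 0.0829, 95% interval -0.186 to 0.201, edgeR's adjusted p = 0.992), and its sign turned with another normalization (RLE) and without replicate 3.

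The ratio of *Fcgr2b* to *Fcgr3* counts was higher after *Zc3h12a* RNP in 4 of 4 pairs. It was 0.217, 0.173, 0.272 and 0.298 in Scrambled RNP replicates 1 to 4 and 0.232, 0.194, 0.314 and 0.338 in *Zc3h12a* RNP replicates 1 to 4, so the groups overlapped while each pair moved up. The mean log2 difference was 0.163, with pairs at 0.0969, 0.167, 0.206 and 0.182 (SD of pairs 0.0468). In an exact two-sided sign-flip permutation test over the 4 pairs, p was 0.125, the smallest that 4 pairs allow, and 0.75 after Benjamini-Hochberg adjustment over 6 ratios. Without the pairing, an exact permutation of the 8 samples gave p = 0.514. The 2 genes may share reads in the counting, since 5.34% of the 50-base words of *Fcgr3* exons and 2.59% of those of *Fcgr2b* occur in the other.

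Of the other 5 ratios, none had an exact p under 0.5 (adjusted p = 0.75 each). The log2 difference was -0.0853 for *Ms4a2* to *Fcer1a*, 0.0541 for *Fcer1a* to *Fcer1g*, -0.0307 for *Csf2rb2* to *Csf2rb*, 0.154 for *Csf2rb* to *Il3ra* and -0.0238 for *Il1rl1* to *Kit*. That of *Csf2rb* to *Il3ra* rested on pair 2, at 0.685, and was -0.0224 without it.

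**Figure D3:**
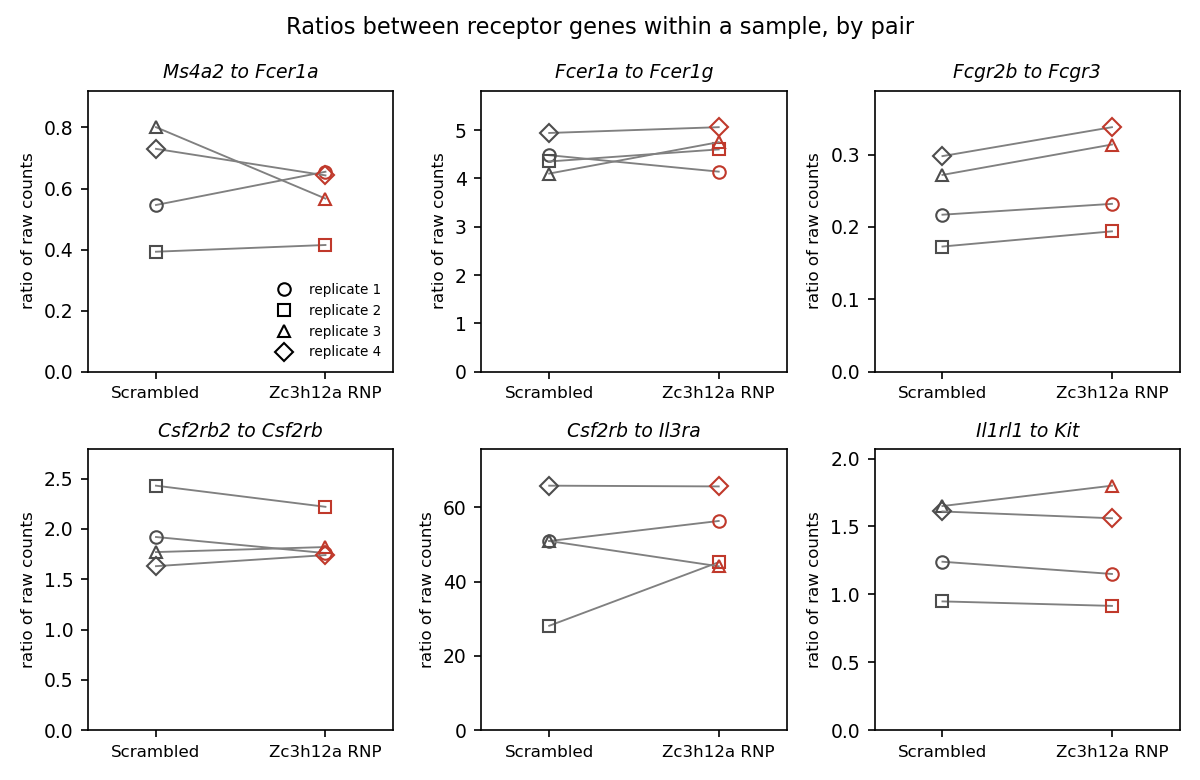
Ratio of raw counts of 6 pairs of receptor genes within each sample, Scrambled RNP at left and *Zc3h12a* RNP at right, with a line joining samples of the same replicate number (marker shape). The ratio of *Fcgr2b* to *Fcgr3* is higher at right in 4 of 4 pairs, from 0.173 to 0.298 at left and from 0.194 to 0.338 at right, and the other ratios go both ways.

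*Kit* (chr5:75735576-75817404, plus strand) encodes the receptor of stem cell factor, a survival and growth signal of mast cells. Its CPM was 3725, 3834, 2724 and 3552 in Scrambled RNP replicates 1 to 4 and 3572, 3926, 2432 and 3449 in *Zc3h12a* RNP replicates 1 to 4. Replicate 3 was the lowest and replicate 2 the highest of both groups. The means were 3459 ± 503 and 3345 ± 641 CPM (SD, n = 4). The log2 fold change of *Kit* was -0.0581 (standard error 0.0706, 95% interval -0.223 to 0.107, edgeR's adjusted p = 0.96). With library size alone as the scaling the sign of *Kit* turned.

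*Il1rl1* (chr1:40468730-40504575, plus strand) encodes ST2, the IL-33 receptor chain, and its gene counts pool the membrane-bound and soluble forms. It was at 4635, 3636, 4502 and 5731 CPM in Scrambled RNP replicates 1 to 4 and 4105, 3591, 4374 and 5372 CPM in *Zc3h12a* RNP replicates 1 to 4. Replicate 4 was the highest and replicate 2 the lowest of both groups. The log2 fold change was -0.0819 (standard error 0.068, 95% interval -0.24 to 0.0766, edgeR's adjusted p = 0.96), and the pairs gave -0.175, -0.0179, -0.0414 and -0.0932. *Il1rl1* exceeded *Kit* in raw counts by a ratio of 1.36 ± 0.333 with Scrambled RNP and 1.36 ± 0.397 with *Zc3h12a* RNP (SD, n = 4). The ratio was below 1 in both samples of replicate 2, at 0.948 and 0.915, and above 1 in the other 6.

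*Il3ra* (chr14:8113752-8123508, minus strand) encodes the α chain that binds IL-3, and was the lowest of the IL-3 receptor chains. It was at 93.87, 120.5, 81.31 and 64.95 CPM in Scrambled RNP replicates 1 to 4 and 92.62, 78.09, 82.61 and 74.66 CPM in *Zc3h12a* RNP replicates 1 to 4. Scrambled RNP replicate 2 was the highest and replicate 4 the lowest of all samples, with the *Zc3h12a* RNP samples in between. Its log2 fold change of -0.105 (standard error 0.135, 95% interval -0.42 to 0.209, edgeR's adjusted p = 0.96) rested on pair 2, at -0.625, and was 0.129 without replicate 2.

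*Csf2rb* (chr15:78209952-78238047, plus strand) encodes the common β chain. Scrambled RNP replicates 1 to 4 had 4780, 3388, 4138 and 4276 CPM and *Zc3h12a* RNP replicates 1 to 4 had 5210, 3531, 3644 and 4901 CPM. It was higher in 3 of 4 pairs, with pair 3 at -0.183, and the groups overlapped. The log2 fold change was 0.0494 (standard error 0.0831, 95% interval -0.144 to 0.243, edgeR's adjusted p = 0.96).

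*Csf2rb2* (chr15:78166707-78189921, minus strand) encodes the β chain specific to IL-3. It was at 9198, 8216, 7304 and 6977 CPM in Scrambled RNP replicates 1 to 4 and at 9179, 7828, 6619 and 8526 CPM in *Zc3h12a* RNP replicates 1 to 4. Replicate 1 was the highest of both groups, and replicate 4 differed most between them. The log2 fold change was 0.0184 (standard error 0.0856, 95% interval -0.181 to 0.218, edgeR's adjusted p = 0.978). Pair 4 gave 0.289 and the other pairs were at or below -0.003; without replicate 4 the value was -0.0711, and it was negative with RLE normalization too. Per kilobase of exon, *Csf2rb2* was 2.93 ± 0.418 times *Csf2rb* (SD, n = 8), and 1.92 times by canonical transcript length, while *Csf2rb* was 22.1 ± 5.35 times *Il3ra*.

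The replicate number took a larger share of the spread of these genes than the RNP did. The shares are not adjusted for the number of levels. The replicate number has more levels than the RNP, so on average it takes the larger share even where neither has an effect. Of the variance of log2 CPM over 8 samples, it took 96.1% for *Kit*, 94.9% for *Il1rl1*, 93.1% for *Ms4a2*, 91.1% for *Fcgr3* and 88.1% for *Csf2rb*. It took 78.9% for *Fcer1g*, 75.3% for *Csf2rb2*, 60.8% for *Fcgr2b*, 56.3% for *Il3ra* and 44.3% for *Fcer1a*, and the median of the 8660 genes above a mean log2 CPM of 3 was 81.2%. The RNP took 0.178% to 6.74%, where the median of those genes was 3.21%. *Fcer1a*, the gene with the highest level per length, had the lowest share for the replicate number, with 55.4% of its variance left to neither.

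**Figure D4:**
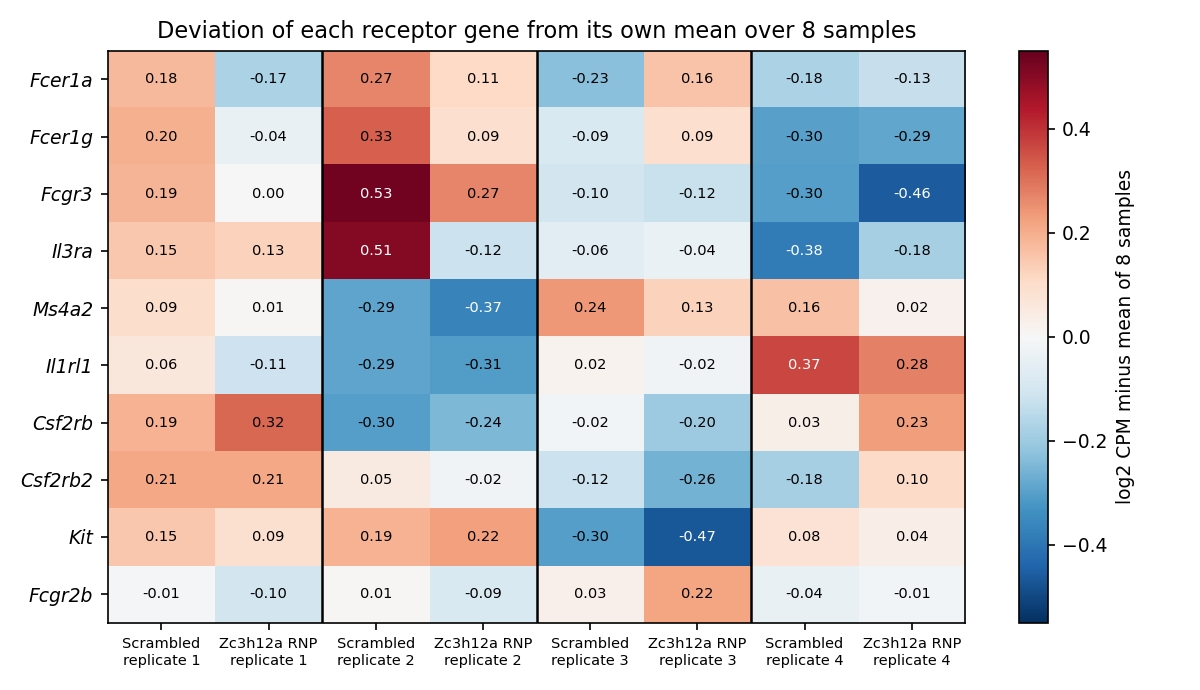
Deviation of each receptor gene from its own mean over 8 samples (log2 CPM, red above and blue below, value printed in each cell), with the Scrambled and *Zc3h12a* RNP samples of a replicate number side by side. *Kit* is low in both replicate 3 samples (-0.30 and -0.47), *Il1rl1* high in both replicate 4 samples (0.37 and 0.28) and *Fcgr3* high in both replicate 2 samples (0.53 and 0.27).

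Across the 8 samples, *Fcer1g* and *Fcgr3* had a Pearson correlation of 0.918, *Fcer1g* and *Il3ra* 0.846, and *Ms4a2* and *Il1rl1* 0.737. *Fcer1g* and *Ms4a2*, chains of the same IgE receptor, had -0.518. *Fcgr3* and *Il1rl1* varied in opposite directions (-0.855), as did *Fcgr2b* and *Kit* (-0.83). The neighbors *Csf2rb* and *Csf2rb2* had 0.581 and *Kit* and *Il1rl1* -0.192. These values describe 8 libraries from the cells of 4 mice, and depth and short-gene content vary among the same libraries.

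Among the 8660 genes with a mean log2 CPM above 3, those with the pattern most like each receptor gene over the 8 samples were sought by Pearson correlation. For the IgE receptor they were *Acaa1a* (0.98), *Lamtor5* (0.973) and *Gng5* (0.957) for *Fcer1a*, *Arl2* (0.987), *2210016L21Rik* (0.985) and *4932438H23Rik* (0.974) for *Ms4a2*, and *Rpl27a* (0.987), *Rpl41* (0.984) and *Ghitm* (0.984) for *Fcer1g*. For *Fcgr3* they were *Fgfr1op2* (0.989), *Ngdn* (0.987) and *Taf1d* (0.986), and for *Fcgr2b* *Sertad1* (0.957), *Ndufaf3* (0.956) and *Zcchc17* (0.935). *Baz2a* (0.992), *Trim11* (0.99) and *Zkscan5* (0.985) were most like *Kit*, and *P2rx7*, *Fbxl21* and *Rap1gap2* (0.986 each) most like *Il1rl1*. *Rab1b* (0.971), *Pih1d1* (0.964) and *Capns1* (0.947) were most like *Il3ra*, *B3gnt8* (0.951), *Rbbp5* (0.942) and *Mtor* (0.941) most like *Csf2rb*, and *Pias3* (0.997), *Capn10* (0.97) and *Sh3gl1* (0.969) most like *Csf2rb2*. No receptor gene was among the 3 most like another one. These genes were found among 8660 by the size of the correlation, over 8 libraries that share mice.

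The partner chains and ligands of these receptors were at low levels. Of 8 such genes, 4 were tested and 2 had higher and 2 lower values, with a median log2 fold change of 0.0244 and none with an unadjusted p at or under 0.05. *Il1rap*, the partner chain of ST2, was at 13.9 to 26.2 CPM and a log2 difference of -0.143 (standard error 0.0939), and *Csf2ra*, the GM-CSF receptor α chain, at 16.2 to 24.4 CPM with -0.0674 (0.115). *Il5ra*, the IL-5 receptor α chain, had 9 to 191 counts per sample, and *Kitl*, the gene of stem cell factor, 1 to 25. The ligand genes *Il33*, *Il3*, *Csf2* and *Il5* had at most 5, 37, 23 and 2 counts in any sample.

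Other Fc receptors were scarcely counted, with a summed level of 2.35 to 6.5 CPM for 9 genes. *Fcgr1* had 10 to 58 counts, *Fcgr4* 11 to 58 and *Fcgrt* 4 to 18 per sample, and *Fcamr* had 0. The 4 genes tested had negative values (median log2 fold change -0.347), as 42.2% of all genes tested had, and none had an unadjusted p at or under 0.05.

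Among 26 tested chains of other cytokine receptors, 11 had higher and 15 lower values, with a median of -0.00937, and edgeR called none. Of the 2 with an unadjusted p at or under 0.05, *Il2ra*, the IL-2 receptor α chain, went from 34.5 ± 13.1 to 23.1 ± 7.49 CPM (SD, n = 4). All 4 pairs were lower, and the fitted value was -0.552 on the log2 scale (standard error 0.107, edgeR's unadjusted p 0.00107 and adjusted p 0.401). *Il2ra* was called in DESeq2, which called 8 higher and 50 lower of all 14934 genes tested. It was also called in limma after removal of the replicate effect with no block in the fit, which called 34 and 79. Limma with the replicate block did not call *Il2ra*. *Il2rg*, the γ chain shared by several interleukin receptors, was lower in 4 of 4 pairs as well, at -0.236 (standard error 0.0815, adjusted p = 0.686 in edgeR). *Il10ra*, an IL-10 receptor chain, had a value of -0.279 and an adjusted p of 0.87 in edgeR.

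Downstream of the IL-3 receptor, 16 genes of the STAT5 pathway were tested, of which 2 had higher and 14 lower values, with a median log2 fold change of -0.123. Negative values were found for 42.2% of all genes tested and for 52.3% of the 8660 genes with a mean log2 CPM above 3. The median of those 8660 genes was -0.00682, and 0.0613 with library size alone as the scaling. An unadjusted p at or under 0.05 was found for 4 of the 16, against 6.17% of all genes tested. Each of the 4 was lower in 4 of 4 pairs. They were picked by p in a fit on the same pairs, so this adds no separate evidence. None of the 16 was called in edgeR, DESeq2 or limma. *Pim2* and *Pim1*, kinase genes that STAT5 induces, had log2 fold changes of -0.302 (standard error 0.094) and -0.236 (0.0819). *Bcl2*, which protects cells from apoptosis, was at -0.344 (0.108), and *Socs2*, a feedback inhibitor, at -0.227 (0.0848). Pairs 1 to 4 of *Bcl2* gave -0.608, -0.00667, -0.341 and -0.419, so pair 2 was nearly level. The adjusted p of the 4 genes in edgeR ran from 0.656 to 0.725. *Socs2* was added to the named genes after its value was seen, to complete the 4.

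Of 10 adaptors of the IL-33 receptor, 3 had higher and 7 lower values, with a median of -0.0544, and none was called in edgeR, DESeq2 or limma. Of all genes tested 42.2% were negative, and of 8660 genes with a mean log2 CPM above 3, 52.3%. An unadjusted p at or under 0.05 was found for 1 of the 10, against 6.17% of all genes tested. This was *Irak2*, a kinase-like adaptor, at -0.214 (standard error 0.0796, adjusted p = 0.72 in edgeR). It was lower in 4 of 4 pairs, as 8.54% of all genes were. *Irak1* and *Map3k7*, kinases of the same pathway, had -0.1 and 0.126.

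Of 10 tested transcription factors known at these receptor genes, 3 had higher and 7 lower values, with a median of -0.0486, and none was called in edgeR, DESeq2 or limma. Of all genes tested 42.2% were negative, and of 8660 genes with a mean log2 CPM above 3, 52.3%. An unadjusted p at or under 0.05 was found for 1 of the 10, against 6.17% of all genes tested. This was *Gata1*, which went from 198 ± 29.4 to 169 ± 19.7 CPM (SD, n = 4), a fitted log2 value of -0.222 (standard error 0.08, adjusted p = 0.7 in edgeR). It was lower in each of the 4 pairs, as 8.54% of all genes were. *Stat5a* was at -0.166 and *Zfpm1*, a cofactor of GATA factors, at -0.19, with adjusted p of 0.875 and 0.96 in edgeR.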

How the data were processed

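RNA-seq was measured in 8 BMMC samples, 4 per RNP. The authors prepared poly(A) libraries, sequenced pairs of 50-base reads, aligned them with HISAT2 2.2.1 to GRCm39 after FastQC 0.11.9, counted them per gene with featureCounts 2.0.1, and deposited raw counts; the strand setting and the handling of multiple matches are not given in the sources used here. The methods name removeBatchEffect, which whole-number counts do not carry. A sample's depth was 19610240 to 33986762 counts.

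Counts were tested in R 4.3.3 with edgeR 4.0.16 (quasi-likelihood test, TMM, filterByExpr, replicate number and RNP as terms, Benjamini-Hochberg over all genes tested), and a gene was called at an adjusted p at or under 0.05 and a log2 fold change beyond 0.5. Standard errors are the size of the log2 fold change over the square root of F, and log2 CPM used a prior count of 2. Levels per kilobase used the union of GENCODE exons on GRCm39. DESeq2 1.42.0, limma-trend (limma 3.58.1), other normalizations, other filters, no block, and leaving out each replicate were alternatives. The test was checked on simulated counts. Named were the 10 receptor genes, the 3 genes most like each, and up to 3 genes of lowest p per list. *Il5ra*, the interleukin and GM-CSF genes, *Socs2*, *Fcamr* and the markers given by their counts or levels alone were named outside this rule, after their values were seen. The genes and lists were chosen with earlier results of these data known.

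Samples were paired because the design text gives 4 mice whose cells were transfected with either RNP; that a number stands for a mouse is not in the labels. Deviations from the group means correlated between the samples of a number at 0.595, 0.0752, 0.624 and 0.0414 over all genes, where samples of different numbers reached 0.398. Over 9668 genes with a mean log2 CPM above 2 they were 0.756, 0.717, 0.728 and 0.719, and those of different numbers at most 0.137. Every pair of samples within a group differed by more than sampling noise (chi-square over its degrees of freedom at least 76.97). Sequences were aligned with Biopython 1.88 and figures drawn with matplotlib 3.10.9 in Python 3.11.15.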

Additional observations from a re-analysis of the deposited data

How the results depend on the processing

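No receptor gene was called under any alternative, and the lowest adjusted p was 0.0751. Of 130 log2 fold changes under the alternatives, 114 kept their direction and 16 reversed, with a largest size of 0.254; the cause was not tested. *Fcer1a* was 0.0493 with library size only and 0.0152 with no filter on low counts, and -0.207 to 0.137 without a given replicate (0.137 without replicate 1, 0.091 without replicate 2). *Kit* was 0.00978 with library size only. *Fcgr2b* was -0.0127 with RLE normalization and in DESeq2, -0.00645 with TMM on genes with a mean of at least 50 counts, -0.00784 with at least 10 counts in every sample, and -0.105 to 0.102 without a given replicate (-0.105 without replicate 3). *Csf2rb2* was -0.00237 with RLE and in DESeq2, and -0.0711 to 0.109 without a given replicate (-0.0711 without replicate 4). *Fcer1g* was -0.209 to 0.045 without a given replicate, with 0.027 without replicate 1 and 0.045 without replicate 2, and *Il3ra* -0.206 to 0.129 (0.129 without replicate 2). *Ms4a2*, *Fcgr3* and *Il1rl1* stayed negative and *Csf2rb* positive under each alternative. Without a replicate, the log2 difference of a ratio was -0.202 to 0.053 for *Ms4a2* to *Fcer1a*, 0.00113 to 0.11 for *Fcer1a* to *Fcer1g*, 0.149 to 0.185 for *Fcgr2b* to *Fcgr3*, -0.0717 to 0.00223 for *Csf2rb2* to *Csf2rb*, -0.0224 to 0.275 for *Csf2rb* to *Il3ra* and -0.0724 to 0.00656 for *Il1rl1* to *Kit*.

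The replicate block changed no call of a receptor gene: with it and without it 0 were called. Without the block 104 genes of all tested had an unadjusted p at or under 0.05, against 922 with it, and the exact p of the 6 ratios was 0.514 to 0.914. Over all genes tested, 0 were called higher and 0 lower with the block, against 80 and 57 without replicate 2, 8 and 50 in DESeq2, 9 and 31 with no filter on low counts, and 34 and 79 after removal of the replicate effect.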
